A study of Canis lupus familiaris with 9 samples.

Results

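M2 macrophages, made from canine blood monocytes by exposure to interleukin-4 (IL-4) and interleukin-13 (IL-13), were compared with resting (M0) macrophages of the same origin. The comparison covered the 10787 genes, of the 12696 protein coding genes in the table, whose group mean was at least 50 normalized counts in M2 or in M0. Monocytes were isolated by adherence from the blood of healthy, spayed female beagles about 2 years old, and all groups were first grown for 7 days with M-CSF, a growth factor that turns monocytes into macrophages, at 10 ng/mL. For M2, canine IL-4 and canine IL-13, both at 20 ng/mL, were then added for 24 h. For M1, interferon gamma (IFN-γ) was added at 20 ng/mL for the same time, and M0 cultures received no further cytokine. There were 3 samples in each group and 9 in the series, and the study describes cultures from 3 unrelated dogs. The cells stand for macrophages kept in culture with M-CSF and a single 24 h exposure, not for macrophages taken from a tissue.

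IL-4 and IL-13 act through receptors that share the chain IL4R, which pairs with IL2RG to bind IL-4 or with IL13RA1 to bind either cytokine. Janus kinases on these chains phosphorylate STAT6, which enters the nucleus and drives genes of allergic, antihelminth and tissue repair responses, among them lectins, the low affinity IgE receptor and chemokines that draw T cells and eosinophils. SOCS1 and CISH are induced by such signals and dampen them, while IL13RA2 binds IL-13 and is known mainly as a decoy. Macrophages exposed to these cytokines are called alternatively activated.

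Each value below is the authors' mean of a group in normalized counts, and the log2 ratio of a gene is the log2 of its M2 mean over its M0 mean, so that a ratio of 1 is a 2-fold higher mean in M2 and a ratio of -1 a 2-fold lower one. Only group means were analysed, so no spread between replicates, no error and no test can be given with any value. A 2-fold difference is therefore a size and not a statistical call. The M1 mean is printed beside some genes as a description, since both ratios rest on the same M0 mean. Counts were not divided by gene length, so levels are compared between groups and not between genes. In bulk samples fewer cells of a type and less RNA per cell cannot be told apart. Members of families with near-identical copies, such as the DLA and CD1 genes, guanylate binding proteins and CC chemokines, may share reads, and their values are less certain for that reason. The genes named are those at the ends of the ratios, of the count differences and of each list, and the members of the IL-4 and IL-13 lists. Further list members were named after their values were seen.

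The group means summed to 27312028 normalized counts in M2, 28039918 in M1 and 26728643 in M0. The depth of each sample is not known from them. All 19 macrophage and monocyte markers with a row passed the minimum of 50, with a summed mean of 486402 in M2 and 503663 in M0. Their median log2 ratio was -0.17, with MRC1 the only marker at least 2-fold higher and ADGRE1 the only marker at least 2-fold lower in M2. None of the 8 markers of NK and cytotoxic cells, the 2 of platelets or the 2 of erythroid cells with a row reached 50. The 11 T cell markers summed to 1621 in M2 and 1850.0 in M0, of which CD2 gave 919 in M2 and 1253 in M0. Among the others, CD3E, a chain of the T cell receptor complex, gave 162 in M2 and 92.8 in M0 (log2 ratio 0.80), and CD3D and CD3G, both under the minimum, were also higher in M2. The median log2 ratio of the T cell markers was -0.02 over the 7 that passed the minimum and 0.52 over all 11 with a row. The 8 B and plasma cell markers summed to 13258 in M2 and 11575 in M0, of which CD79A, a B cell receptor chain, gave 12039 in M2 and 10511 in M0. No T or B cell marker that passed the minimum differed by 2-fold. Under the minimum, BCL11B, a T cell marker, gave 21.3 in M2 and 7.83 in M0. The B cell marker PAX5 gave 25.9 in M2 and 9.91 in M0, while POU2AF1 of the same list gave 39.0 in M2 and 46.2 in M0. The gene nearest the minimum inside it was C30H15orf62, with means of 37.8 in M2 and 50.1 in M0, and the nearest outside was RND1, with 49.99 in M2 and 23.96 in M0.

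Most genes had similar means in M2 and M0 macrophages. The median log2 ratio over the 10787 genes was 0.02, the quartiles were -0.19 and 0.21, and the central 95% of genes lay between -1.18 and 1.11. In M2, 323 genes (2.99%) were at least 2-fold higher and 377 genes (3.49%) at least 2-fold lower than in M0, while 93.5% of genes lay within 2-fold and 53.1% had a ratio above 0. The counts of each list below are to be read against these shares. Higher ratios went further than lower ones, as 40 genes were at least 8-fold higher and 14 at least 8-fold lower. Of the genes at least 2-fold higher, 84 had an M0 mean under 50 and 239 had one of 50 or more, and of those at least 2-fold lower, 85 had an M2 mean under 50. The genes at least 2-fold higher held 5.5% of all normalized counts in M2 and 1.59% in M0, and those at least 2-fold lower held 1.67% in M2 and 4.11% in M0. The spread of ratios was widest among the 968 genes whose M2 and M0 means averaged under 100, where the central 95% ran from -1.86 to 1.82, and narrowest from 1000 to 10000, where it ran from -0.91 to 0.96. Among the 366 genes averaging 10000 or more it widened again, from -1.12 to 1.56, and 21 of them were at least 2-fold higher and 15 at least 2-fold lower.

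**Figure D1:**
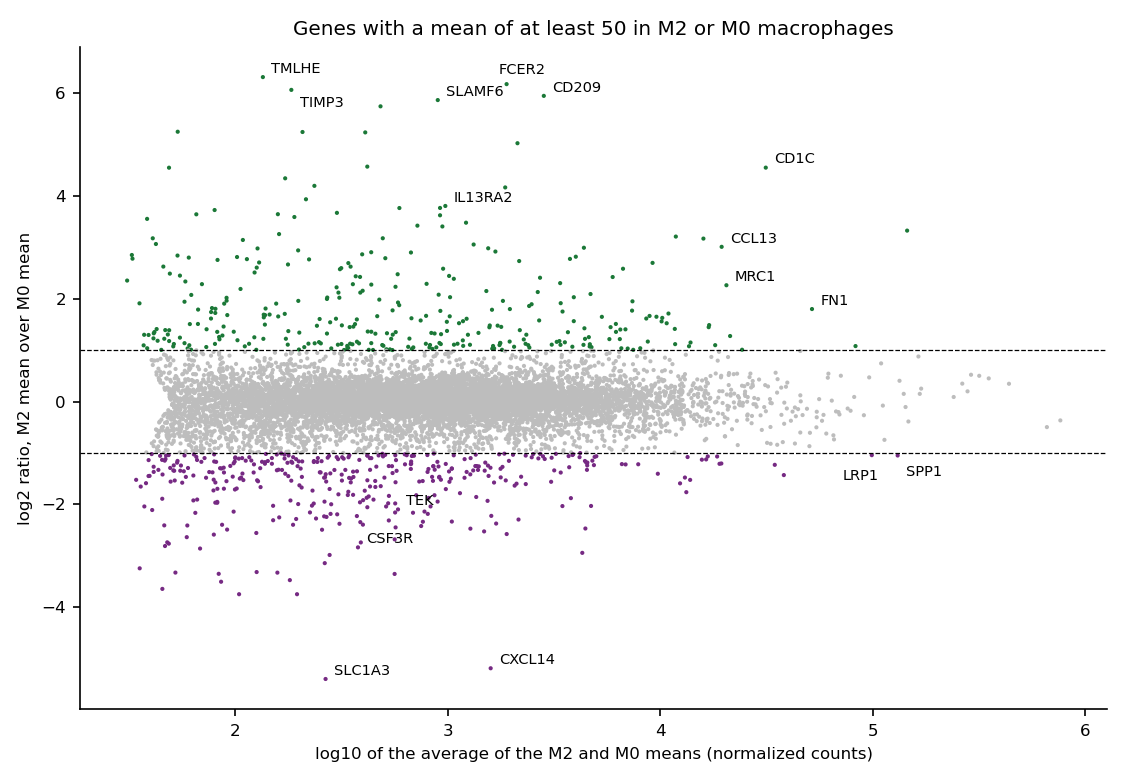
Each point is 1 of the 10787 genes, with the log10 of the average of its M2 and M0 means on the x axis (normalized counts) and the log2 of its M2 mean over its M0 mean on the y axis. Dashed lines mark 2-fold, green points are the 323 genes at least 2-fold higher in M2 and purple points the 377 at least 2-fold lower, with most genes in the gray band between them.

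Most of the genes with the highest ratios had low means in resting cells, though CD1C gave 2556 in M0. TMLHE, which starts the synthesis of carnitine, gave 267 in M2, 108 in M1 and 3.35 in M0 (log2 ratio 6.32). Its M0 mean lay near the lowest in the table, and with a pseudocount of 10 the log2 ratio of TMLHE was 4.38, while the log2 ratio of FCER2 was 5.93. FCER2, the low affinity IgE receptor CD23, gave 3735 in M2, 43.3 in M1 and 51.5 in M0 (log2 ratio 6.18), so the M1 mean stayed near the M0 mean while the M2 mean was 72.6-fold higher. The same pattern, high in M2 with M1 close to M0, was seen for TIMP3, an inhibitor of matrix metalloproteinases, with 363 in M2, 4.99 in M1 and 5.40 in M0 (log2 ratio 6.07). With a pseudocount of 10 the log2 ratio of TIMP3 was 4.60. SLAMF6, a receptor of the SLAM family that binds itself on other leukocytes, gave 1767 in M2, 24.8 in M1 and 30.2 in M0 (log2 ratio 5.87). ZEB1, a transcription factor of the epithelial to mesenchymal transition, gave 405 in M2, 21.5 in M1 and 26.4 in M0 (log2 ratio 3.94). In these 4 genes the M1 mean did not exceed the M0 mean.

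Other genes at the top of the order were higher than M0 in both treated groups. CD209, the C-type lectin DC-SIGN, gave 5576 in M2, 710.0 in M1 and 90.0 in M0 (log2 ratio 5.95). The secreted phospholipases PLA2G5, with 949 in M2, 538 in M1 and 17.6 in M0 (log2 ratio 5.75), and PLA2G2F, with 105 in M2, 91.0 in M1 and 2.74 in M0 (log2 ratio 5.26), had M1 means well above M0 as well. The M0 mean of PLA2G2F was near the lowest, and with a pseudocount of 10 its log2 ratio was 3.17. EDN1, which encodes the vasoconstrictor endothelin-1, gave 798 in M2, 353 in M1 and 21.1 in M0 (log2 ratio 5.24). SLC25A48, a mitochondrial carrier, gave 448 in M2, 5991 in M1 and 24.3 in M0 (log2 ratio 4.20) and was the only gene of the 20 highest whose M1 mean was above its M2 mean. C9H17orf99 gave 4134 in M2, 1508 in M1 and 126 in M0 (log2 ratio 5.03). F2RL3, the thrombin receptor PAR4, gave 149 in M2, 34.6 in M1 and 11.2 in M0 (log2 ratio 3.73).

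A further set at the top was high in M2 and below M0 in M1. CD1C, which presents lipid antigens to T cells, gave 60136 in M2, 1001 in M1 and 2556 in M0 (log2 ratio 4.56). CALD1, the actin binding protein caldesmon, gave 804 in M2, 2.67 in M1 and 33.7 in M0 (log2 ratio 4.58). IL13RA2 gave 1821 in M2, 47.8 in M1 and 129.8 in M0 (log2 ratio 3.81). ARHGAP6 gave 1716 in M2, 48.0 in M1 and 126 in M0 (log2 ratio 3.77). A last group was highest in M2 with M1 means above M0. STAC2 gave 405 in M2, 14.9 in M1 and 10.6 in M0 (log2 ratio 5.25). FAM167A gave 3534 in M2, 325 in M1 and 196 in M0 (log2 ratio 4.17) and the sulfotransferase gene UST gave 1105 in M2, 138 in M1 and 81.0 in M0 (log2 ratio 3.77).

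At the other end, SLC1A3, a glutamate transporter, had the lowest ratio, with 12.3 in M2, 335 in M1 and 521 in M0 (log2 ratio -5.40). SLC1A7, another glutamate transporter, gave 13.9 in M2, 51.5 in M1 and 158 in M0 (log2 ratio -3.51). SLC2A5, the fructose transporter GLUT5, gave 100.3 in M2, 513 in M1 and 1026 in M0 (log2 ratio -3.35). CXCL14, a chemokine made constitutively by many epithelia, gave 84.9 in M2, 3451 in M1 and 3102 in M0 (log2 ratio -5.19), so its M2 mean was 36.5-fold below M0 with no such gap in M1. MET, the receptor for hepatocyte growth factor, gave 6.73 in M2, 97.2 in M1 and 84.3 in M0 (log2 ratio -3.65). SLC39A14, a transporter of zinc, iron and manganese, gave 988 in M2, 18877 in M1 and 7607 in M0 (log2 ratio -2.94), and MCTP1 gave 12.5 in M2, 1144 in M1 and 85.1 in M0 (log2 ratio -2.77), so the M1 mean of these 2 genes lay above M0 and the M2 mean below it.

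Several genes of neutrophils and monocytes were among the lowest ratios, along with genes of other kinds. CSF3R, the receptor for G-CSF, gave 92.9 in M2, 376 in M1 and 664 in M0 (log2 ratio -2.84). S100A12, a calcium binding protein released by granulocytes and monocytes, gave 23.0 in M2, 10.2 in M1 and 229.7 in M0 (log2 ratio -3.32), while S100A8 of the same family gave 17241 in M2 and 20174 in M0 (log2 ratio -0.23). CLEC12A, an inhibitory lectin of myeloid cells, gave 14.9 in M2, 116 in M1 and 153 in M0 (log2 ratio -3.35). HK3, a hexokinase of myeloid cells, gave 62.4 in M2, 75.2 in M1 and 495 in M0 (log2 ratio -2.99). NFE2, a factor of erythroid and megakaryocyte genes, gave 28.6 in M2, 30.0 in M1 and 288 in M0 (log2 ratio -3.33). TNFSF8, the CD30 ligand, gave 29.9 in M2, 12.01 in M1 and 332 in M0 (log2 ratio -3.48). Further low genes were BCL2L15 (-3.75 on the log2 scale), MPP2 (-3.75), the diacylglycerol kinase DGKG (-3.33), the heparan sulfate sulfatase SULF1 (-3.25), ANO5 (-3.14), AK9 (-2.86) and LRGUK (-2.81). Of the 5 neutrophil markers with a row, MPO stayed under the minimum, with 29.3 in M2 and 1.497 in M0, and the 4 others had ratios below 0. Of those, S100A8 and LTF lay close to 0, with LTF at 68.5 in M2 and 74.7 in M0 (log2 ratio -0.12). The 5 markers summed to 17454 in M2, 9890.5 in M1 and 21144.5 in M0, and the part of such cells in these values was not tested.

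**Figure D2:**
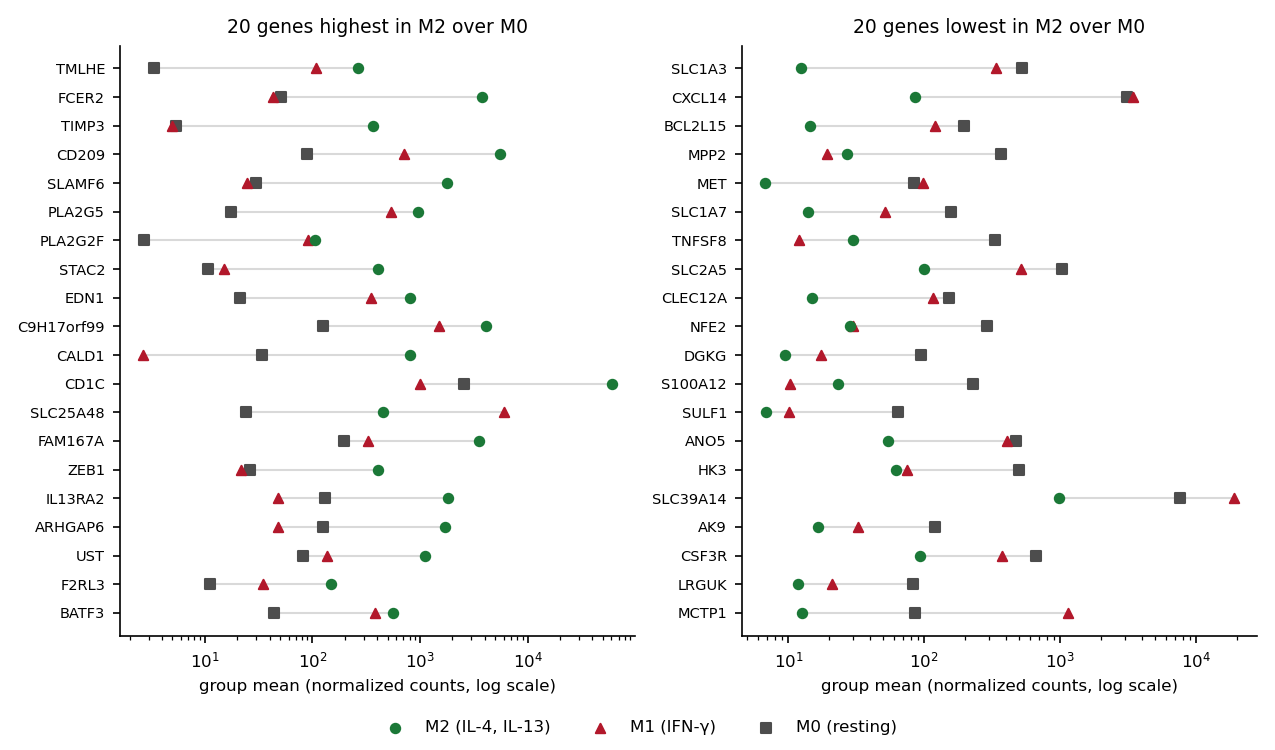
Points are the group means of each gene in normalized counts on a log axis, with M2 as green circles, M1 as red triangles and M0 as gray squares. The left panel holds the 20 genes with the highest and the right panel the 20 with the lowest ratio of M2 over M0, with TMLHE (267 in M2, 3.35 in M0) and SLC1A3 (12.3 in M2, 521 in M0) at the ends.

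The chains that bind IL-4 and signal for IL-13 lay within 2-fold, while the decoy receptor and the feedback genes were higher in M2. Of the 29 genes listed as IL-4 and IL-13 receptors and signaling, 27 passed the minimum, 5 were at least 2-fold higher, 0 were at least 2-fold lower, and the median log2 ratio was 0.10. The receptor chain IL4R gave 7058 in M2 and 6228 in M0 (log2 ratio 0.18), its partner IL2RG 10924 in M2 and 6043 in M0 (log2 ratio 0.85) and IL13RA1 5701 in M2 and 10751 in M0 (log2 ratio -0.92). Thus the chain used by IL-13 had the lowest ratio of the list, and the decoy receptor IL13RA2, given above, had the highest.

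The kinases JAK1, with 18859 in M2 and 13901 in M0 (log2 ratio 0.44), and JAK3, with 6382 in M2 and 4646 in M0 (log2 ratio 0.46), had slightly higher means in M2, and JAK2 gave 8823 in M2, 17622 in M1 and 4296 in M0 (log2 ratio 1.04). STAT6 gave 4418 in M2 and 4966 in M0 (log2 ratio -0.17), and STAT3 and STAT5A lay within 0.1 of 0 on the log2 scale, while STAT5B gave 1212 in M2 and 1796 in M0 (log2 ratio -0.57). Among the feedback inhibitors, SOCS1 gave 1727 in M2, 4463 in M1 and 162 in M0 (log2 ratio 3.41), so it was high in both treated groups. CISH gave 4579 in M2, 281 in M1 and 860.2 in M0 (log2 ratio 2.41) and SOCS2 gave 449.8 in M2, 6.31 in M1 and 147 in M0 (log2 ratio 1.61), and for these the M1 mean lay below M0. The phosphatase PTPN2, which acts on Janus kinases and STATs, gave 4073 in M2 and 2055 in M0 (log2 ratio 0.99). PTPN6, the phosphatase SHP-1, gave 6547 in M2 and 9183 in M0 (log2 ratio -0.49). IRS2, an adaptor that links IL4R to PI3 kinase, gave 454 in M2 and 839 in M0 (log2 ratio -0.88).

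Genes known to respond to IL-4 and IL-13, mostly from work on human and mouse macrophages, were mostly higher in M2. Of 46 genes listed, 31 had a row, 30 passed the minimum, 15 were at least 2-fold higher and 1 was at least 2-fold lower, and 24 of the 30 ratios were above 0. The median log2 ratio was 0.96, beside 0.02 over all genes. This list, like the others, was chosen with earlier results of these data known, so the contrast is a description only. In M1 the median ratio of the same 30 genes to M0 was -0.68.

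The mannose receptor MRC1, also called CD206, gave 33893 in M2, 1355 in M1 and 7046 in M0 (log2 ratio 2.27). CLEC10A, a galactose binding lectin, gave 724 in M2, 41.2 in M1 and 406 in M0 (log2 ratio 0.84). CCL13, a chemokine for monocytes and eosinophils, gave 34599 in M2, 69.3 in M1 and 4282 in M0 (log2 ratio 3.01). For these 3 genes M2 lay above M0 and M1 below it. TGM2, the protein crosslinking enzyme transglutaminase 2, gave 6412 in M2, 32911 in M1 and 2383 in M0 (log2 ratio 1.43), so its M1 mean exceeded both others. F13A1, a transglutaminase of clotting, gave 25069.9 in M2, 1294 in M1 and 17046 in M0 (log2 ratio 0.56).

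Several transcription factors of this list were at least 2-fold higher. EGR2 gave 7773 in M2, 989 in M1 and 974 in M0 (log2 ratio 3.00). KLF4 gave 1765 in M2, 265 in M1 and 596 in M0 (log2 ratio 1.57). IRF4 gave 528 in M2, 12.1 in M1 and 192 in M0 (log2 ratio 1.46). BATF3 gave 559 in M2, 381 in M1 and 43.8 in M0 (log2 ratio 3.68). Of these, BATF3 was higher in M1 as well, EGR2 was level between M1 and M0, and KLF4 and IRF4 were lower in M1. MYC gave 1278 in M2 and 843 in M0 (log2 ratio 0.60). CDH1, which encodes E-cadherin, a cell adhesion protein that mouse and human macrophages are known to make under IL-4, gave 351 in M2, 25.3 in M1 and 29.1 in M0 (log2 ratio 3.59). CDH1 is also an epithelial marker. The 3 of 9 such markers with a row summed to 381 in M2, 46.1 in M1 and 102 in M0, most of it in M2 from CDH1. The others were lower in M2. ESRP1 gave 24.8 in M2 and 66.4 in M0 (log2 ratio -1.42), and KRT18, under the minimum, gave 4.78 in M2 and 6.14 in M0. The part of such cells was not tested. The IL-27 receptor chain IL27RA gave 2222 in M2 and 1049 in M0 (log2 ratio 1.08). IL17RB, a receptor chain for IL-25, gave 196 in M2, 496 in M1 and 116 in M0 (log2 ratio 0.76).

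Several genes used as markers of alternative activation in other species did not differ by 2-fold. PPARG, a lipid sensing nuclear receptor, gave 333 in M2 and 346 in M0 (log2 ratio -0.05). ALOX15, the 15-lipoxygenase, gave 129.8 in M2 and 152 in M0 (log2 ratio -0.23). CD36, a scavenger receptor for oxidized lipids, gave 10944 in M2 and 14871 in M0 (log2 ratio -0.44). The IL-1 receptor antagonist IL1RN gave 5084 in M2 and 4954 in M0 (log2 ratio 0.04), the decoy receptor IL1R2 11222 in M2 and 12591 in M0 (log2 ratio -0.17), CHI3L1 29348 in M2 and 33419 in M0 (log2 ratio -0.19) and STAB1 56825 in M2 and 54936 in M0 (log2 ratio 0.05). PDCD1LG2, which encodes PD-L2, gave 5429 in M2 and 3513 in M0 (log2 ratio 0.63), MAOA, a monoamine oxidase, 1334 in M2 and 1011 in M0 (log2 ratio 0.40), and the elastase MMP12 405229 in M2 and 296143 in M0 (log2 ratio 0.45). TREM2, a lipid receptor of tissue macrophages, was the only member at least 2-fold lower, with 2575 in M2, 2426 in M1 and 6467 in M0 (log2 ratio -1.33).

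**Figure D3:**
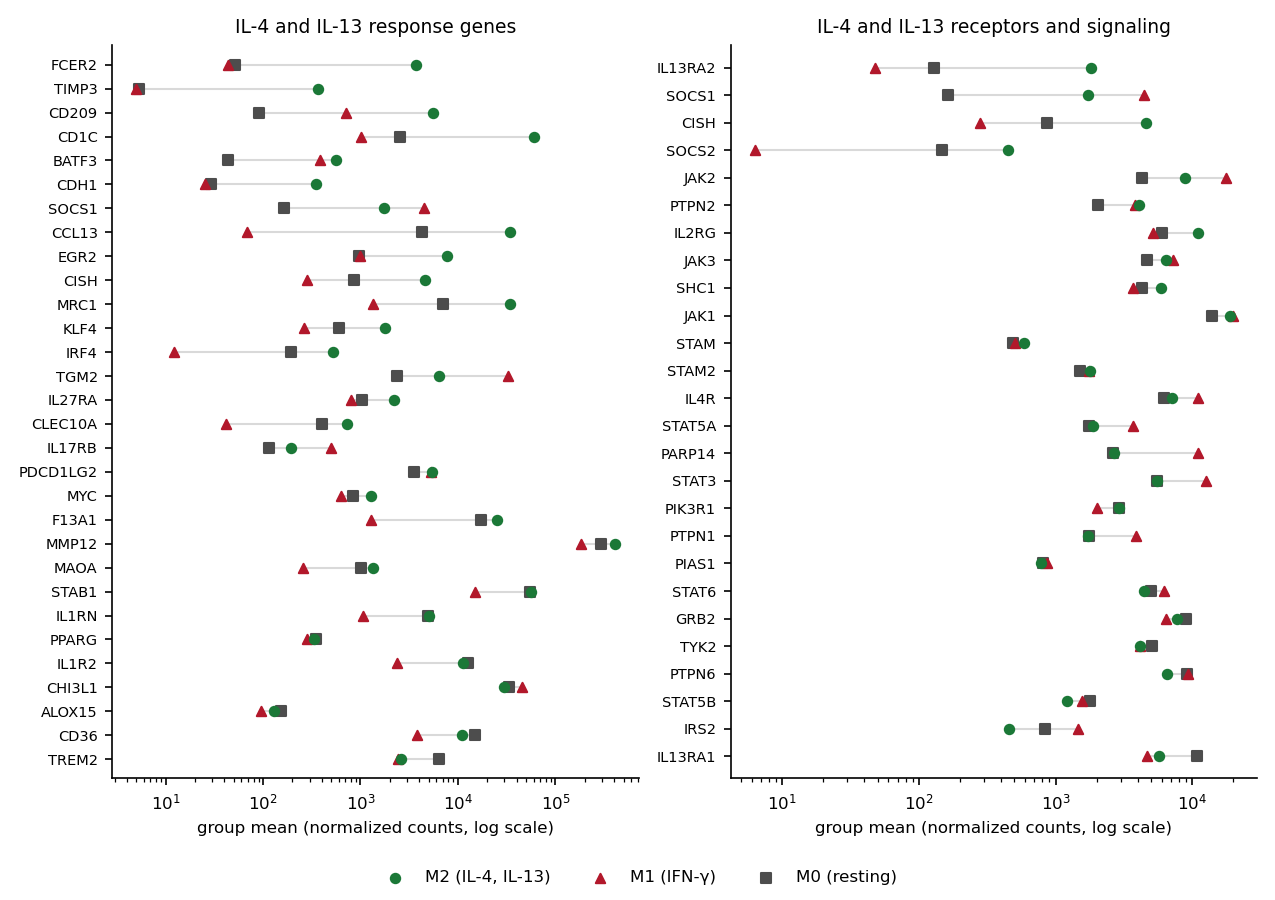
Points are group means in normalized counts on a log axis, with M2 as green circles, M1 as red triangles and M0 as gray squares. The left panel shows the 30 response genes and the right panel the receptor and signaling genes, except those not reported by name, in the order of their ratio of M2 over M0, from FCER2 (6.18) to TREM2 (-1.33) and from IL13RA2 (3.81) to IL13RA1 (-0.92) on the log2 scale.

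The IgE receptors were higher in M2 and the IgG receptors were level. Of 9 Fc receptor genes that passed the minimum, 3 were at least 2-fold higher and 2 at least 2-fold lower. Besides FCER2, MS4A2, the β chain of the high affinity IgE receptor, gave 2240.1 in M2, 15.2 in M1 and 200.2 in M0 (log2 ratio 3.48). FCER1A, its IgE binding α chain, gave 1796 in M2, 80.0 in M1 and 342 in M0 (log2 ratio 2.39). Both thus had M1 means below M0. The signaling chain FCER1G, which FCER1A and MS4A2 need, gave 20997 in M2 and 18243 in M0 (log2 ratio 0.20). The IgG receptor FCGR1A gave 7141 in M2 and 7310.3 in M0 (log2 ratio -0.03). The IgG transport receptor FCGRT gave 20339 in M2 and 21742 in M0 (log2 ratio -0.10). The Fc receptor-like genes FCRL1, with 207 in M2, 318 in M1 and 925 in M0 (log2 ratio -2.16), and FCRL2, with 201 in M2, 91.0 in M1 and 826 in M0 (log2 ratio -2.04), were lower in M2.

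MS4A2, FCER1A and GATA2, a transcription factor of mast cells and blood progenitors that gave 144 in M2, 4.995 in M1 and 21.3 in M0 (log2 ratio 2.76), are also markers of mast cells and basophils. Of the 10 such markers listed, 4 had a row, and their summed mean was 4183 in M2, 104 in M1 and 576 in M0. The fourth, GATA1, had means of 2.79 in M2 and 12.4 in M0, the opposite order. The 6 markers left, among them KIT and CPA3, were not analysed here, and the part of such cells in these values was not tested.

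Genes of antigen presentation by MHC class II leaned higher in M2. CIITA, the master regulator of class II genes, gave 15448 in M2, 10373 in M1 and 4989 in M0 (log2 ratio 1.63). Of 14 genes of this list that passed the minimum, 3 were at least 2-fold higher, 0 at least 2-fold lower and 10 above 0, with a median log2 ratio of 0.46. The class II chains DLA-DRA, with 341459 in M2 and 237556 in M0 (log2 ratio 0.52), DLA-DQA1, with 212164 in M2 and 115364 in M0 (log2 ratio 0.88), and HLA-DQB1, with 3263 in M2 and 1522 in M0 (log2 ratio 1.10), were all higher, and HLA-DQB2, which was outside the list, gave 112539.8 in M2 and 53177 in M0 (log2 ratio 1.08). DLA-DOA, which modulates peptide loading, gave 140.4 in M2, 141 in M1 and 37.4 in M0 (log2 ratio 1.91). The invariant chain CD74 gave 489033 in M2 and 384244 in M0 (log2 ratio 0.35). The protease CTSS, which cuts it, gave 152086 in M2 and 114770.0 in M0 (log2 ratio 0.41). MARCHF1, a ubiquitin ligase that removes class II molecules from the surface, gave 2781 in M2 and 4232 in M0 (log2 ratio -0.61).

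Dendritic cell genes had the highest median of the 38 gene lists, 1.31 on the log2 scale, with 9 of the 16 that passed the minimum at least 2-fold higher and 1 at least 2-fold lower. This list shares CD209, CD1C, BATF3, IRF4 and CLEC10A with the response genes. Beyond these, CD1A8, another CD1 gene, gave 5898 in M2, 1349 in M1 and 3167 in M0 (log2 ratio 0.90), the actin bundling protein FSCN1 11399 in M2, 6853 in M1 and 3338 in M0 (log2 ratio 1.77), DPP4, a surface peptidase, 97.52 in M2 and 19.3 in M0 (log2 ratio 2.34), and CCR7, the receptor that guides cells to lymph nodes, 257 in M2, 354 in M1 and 99.2 in M0 (log2 ratio 1.37). ZBTB46, a transcription factor of conventional dendritic cells, gave 77.5 in M2 and 32.7 in M0 (log2 ratio 1.25). Another factor of that lineage, IRF8, gave 2467 in M2 and 2546 in M0 (log2 ratio -0.04). CADM1, an adhesion protein of cross-presenting cells, gave 179.8 in M2 and 374 in M0 (log2 ratio -1.06). Of the 12 markers fixed for dendritic cells, 4 had a row, and CD1C alone made up most of their summed mean of 62267 in M2 and 3031 in M0. Whether cells of that type were present was not tested.

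Class I genes differed less. Of 17 genes that passed the minimum, 15 had ratios above 0, 1 was at least 2-fold higher and the median was 0.30. That gene, DLA-79, a class Ib gene, gave 15912 in M2, 19257 in M1 and 5525 in M0 (log2 ratio 1.53). The peptide transporter TAP1 gave 26206 in M2 and 18086 in M0 (log2 ratio 0.54). The class I light chain B2M gave 295151 in M2 and 231474 in M0 (log2 ratio 0.35).

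Costimulatory and inhibitory ligands and receptors differed in both directions. Of 32 that passed the minimum, 5 were at least 2-fold higher and 6 at least 2-fold lower, with a median of 0.10. The SLAM family receptors CD84, with 4322 in M2, 549.8 in M1 and 985 in M0 (log2 ratio 2.13), SLAMF1, with 925 in M2, 428 in M1 and 243 in M0 (log2 ratio 1.93), and CD244, with 2224 in M2, 1427 in M1 and 1085 in M0 (log2 ratio 1.04), were higher along with SLAMF6, while LY9 of the same family gave 1858 in M2, 4097 in M1 and 7594 in M0 (log2 ratio -2.03). CD86, which binds CD28 on T cells, gave 11955 in M2, 11926 in M1 and 25068 in M0 (log2 ratio -1.07), whereas CD80, which binds the same receptor, gave 3937 in M2 and 2946 in M0 (log2 ratio 0.42). The TNF family ligand TNFSF15 gave 247 in M2 and 65.7 in M0 (log2 ratio 1.91). TNFSF9, the 4-1BB ligand, gave 235 in M2 and 734 in M0 (log2 ratio -1.65). VSIR, the inhibitory protein VISTA, gave 3160.1 in M2, 1074 in M1 and 6662 in M0 (log2 ratio -1.08). VSIG4, which inhibits T cells and binds complement C3b, gave 11462 in M2, 13946 in M1 and 26527 in M0 (log2 ratio -1.21). CD274, which encodes PD-L1, had a higher M2 mean that stayed under 2-fold, with 1800.2 in M2, 8667 in M1 and 1129 in M0 (log2 ratio 0.67).

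Of the chemokines that passed the minimum, all but CXCL14 had higher means in M2. Thus 11 of 12 had ratios above 0, 5 were at least 2-fold higher and 1 at least 2-fold lower, and the median was 0.77. The chemokines CCL3, with 9962 in M2, 2419 in M1 and 3755 in M0 (log2 ratio 1.41), CCL4, with 6419 in M2, 2722 in M1 and 3077 in M0 (log2 ratio 1.06), and CCL5, with 6503 in M2, 9228 in M1 and 2723 in M0 (log2 ratio 1.26), were higher, and the monocyte chemokine CCL8 gave 19138 in M2, 64883 in M1 and 8618 in M0 (log2 ratio 1.15). The neutrophil chemokine CXCL8 gave 136927 in M2, 18722 in M1 and 81725 in M0 (log2 ratio 0.74), the monocyte chemokine CCL7 111645 in M2 and 80504 in M0 (log2 ratio 0.47), and the IFN-γ induced chemokine CXCL10 425 in M2, 105296 in M1 and 318 in M0 (log2 ratio 0.42). Of 9 chemokine receptors, 3 were at least 2-fold higher, namely CCR7, CCR6 and ACKR3, and 0 were at least 2-fold lower. CCR6, the receptor for CCL20, gave 119 in M2 and 46.3 in M0 (log2 ratio 1.36). The scavenging receptor ACKR3 gave 9441 in M2, 169.8 in M1 and 4612 in M0 (log2 ratio 1.03). CXCR3 gave 1495 in M2 and 2708 in M0 (log2 ratio -0.86). CXCR4 gave 29362 in M2, 1224 in M1 and 28349 in M0 (log2 ratio 0.05).

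The list of interleukins and their receptors showed no common direction, with 4 of 42 at least 2-fold higher, 4 at least 2-fold lower and a median of 0.12. It counts CSF3 and its receptor CSF3R, while IL13RA2 (3.81 on the log2 scale) was outside it. The growth factor CSF3, or G-CSF, gave 107 in M2 and 40.2 in M0 (log2 ratio 1.41), its receptor being among the lowest genes. IL2RA, the high affinity IL-2 receptor chain, gave 927 in M2, 805 in M1 and 396 in M0 (log2 ratio 1.23). IL1R1, the IL-1 receptor, gave 1138 in M2, 121 in M1 and 558 in M0 (log2 ratio 1.03). The inflammatory cytokines IL1A, with 685 in M2 and 345 in M0 (log2 ratio 0.99), IL6, with 464 in M2, 990.2 in M1 and 234 in M0 (log2 ratio 0.99), and IL1B, with 3635 in M2, 239.7 in M1 and 2207 in M0 (log2 ratio 0.72), lay under 2-fold, as did the anti-inflammatory IL10, with 3466 in M2, 951 in M1 and 2811 in M0 (log2 ratio 0.30). IL31RA, the receptor chain for the itch cytokine IL-31, gave 128 in M2, 3807 in M1 and 671 in M0 (log2 ratio -2.40). IL21R gave 52.0 in M2, 1652 in M1 and 143 in M0 (log2 ratio -1.46) and IL7R gave 1802 in M2, 5263 in M1 and 3646 in M0 (log2 ratio -1.02), so that the M1 mean of these 3 lay above M0 and the M2 mean below it. CSF2RB, the signaling chain shared by the receptors for GM-CSF, IL-3 and IL-5, gave 60565 in M2 and 30581 in M0 (log2 ratio 0.99).

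NF-κB genes and TNF targets were also mixed, with 4 of 57 at least 2-fold higher, 3 at least 2-fold lower and a median of 0.15. TNF gave 742 in M2, 1412 in M1 and 295 in M0 (log2 ratio 1.33), ICAM1, an adhesion molecule for leukocytes, 25044 in M2, 24495 in M1 and 8914 in M0 (log2 ratio 1.49), TNFAIP6 469 in M2, 1049 in M1 and 167 in M0 (log2 ratio 1.48) and IER3 9970.0 in M2 and 4955 in M0 (log2 ratio 1.01). PTGS2, the inducible cyclooxygenase, gave 639.9 in M2, 827 in M1 and 2442 in M0 (log2 ratio -1.93). EGR1 gave 467 in M2, 269.7 in M1 and 1158 in M0 (log2 ratio -1.31). SERPINB2, an inhibitor of urokinase, gave 1969 in M2, 342 in M1 and 4199 in M0 (log2 ratio -1.09). The pathway's subunits NFKB1, with 7876 in M2 and 5201 in M0 (log2 ratio 0.60), REL, with 1246 in M2 and 927 in M0 (log2 ratio 0.43), and RELA, with 2995 in M2 and 3483 in M0 (log2 ratio -0.22), lay within 2-fold.

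Over the whole list of growth and angiogenic factors and their receptors, 7 of 32 were at least 2-fold higher, 4 at least 2-fold lower, and the median was 0.12. HBEGF, a heparin binding EGF receptor ligand, gave 2755 in M2, 22.6 in M1 and 348 in M0 (log2 ratio 2.99). EREG gave 94.2 in M2, 1.33 in M1 and 13.1 in M0 (log2 ratio 2.84), TGFA 376 in M2, 43.5 in M1 and 123 in M0 (log2 ratio 1.61), and AREG, which stayed under 2-fold, 1384 in M2, 143 in M1 and 845 in M0 (log2 ratio 0.71). These 4 EGF receptor ligands, picked after their values were seen, had M1 means below M0. INHBA, which encodes activin A, gave 1319 in M2, 206 in M1 and 123 in M0 (log2 ratio 3.43), PGF, the placental growth factor, 488 in M2 and 225 in M0 (log2 ratio 1.12), and the receptor FGFR1 653 in M2, 42.1 in M1 and 121 in M0 (log2 ratio 2.43). The angiopoietin receptor TEK gave 221 in M2, 43.9 in M1 and 947 in M0 (log2 ratio -2.10). HGF gave 138 in M2, 71.2 in M1 and 386 in M0 (log2 ratio -1.48). The endothelin receptor EDNRB gave 48.1 in M2, 15.3 in M1 and 156 in M0 (log2 ratio -1.69). Hence EDN1 had a higher and its receptor EDNRB a lower mean in M2, and HGF and its receptor MET were both lower. VEGFA gave 22544 in M2, 3215 in M1 and 20324 in M0 (log2 ratio 0.15). TEK is also an endothelial marker, and the 5 of 9 such markers with a row summed to 529.8 in M2, 196 in M1 and 1169 in M0, most of it in M0 from TEK. The others of that list that passed the minimum lay within 2-fold, in both directions. CLDN5 gave 110.0 in M2 and 58.4 in M0 (log2 ratio 0.91), and TIE1 gave 118 in M2 and 76.7 in M0 (log2 ratio 0.63). VWF gave 58.7 in M2 and 70.1 in M0 (log2 ratio -0.26). ESAM, under the minimum, gave 21.5 in M2 and 16.8 in M0. The part of such cells was not tested.

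Matrix genes held 10 members at least 2-fold higher and 3 at least 2-fold lower of 37, with a median of 0.10. Of 11 fibroblast and mesenchymal markers, 2 had a row, and they summed to 363 in M2, 613 in M1 and 197.5 in M0. THY1 gave 204 in M2, 148 in M1 and 72.2 in M0, 2.83-fold higher in M2 than in M0. PDGFRB gave 159 in M2, 466 in M1 and 125 in M0 (log2 ratio 0.35). The part of such cells in the matrix values was not tested. FN1, which encodes fibronectin, gave 80386 in M2, 3921 in M1 and 23042 in M0 (log2 ratio 1.80), the proteoglycans VCAN 11454 in M2, 297 in M1 and 1906 in M0 (log2 ratio 2.59) and BGN 602 in M2 and 97.3 in M0 (log2 ratio 2.63), and NPNT, an integrin ligand of basement membranes, 6564 in M2, 69.2 in M1 and 956 in M0 (log2 ratio 2.78). The collagenase MMP1 gave 3773 in M2, 137 in M1 and 566 in M0 (log2 ratio 2.74) and MMP25 288 in M2 and 113 in M0 (log2 ratio 1.34), while MMP9 gave 370943 in M2 and 261762 in M0 (log2 ratio 0.50). The inhibitor TIMP1 gave 1423 in M2 and 2680.0 in M0 (log2 ratio -0.91), opposite in direction to TIMP3. The lower members were ADAM19, with 76.0 in M2 and 289 in M0 (log2 ratio -1.92), FBLN2, with 208 in M2 and 655 in M0 (log2 ratio -1.65), and SPP1, which encodes osteopontin, with 85244 in M2, 192182 in M1 and 176315 in M0 (log2 ratio -1.05). THBS1, or thrombospondin-1, gave 47559.8 in M2, 519.6 in M1 and 73173 in M0 (log2 ratio -0.62).

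Integrins leaned the other way, with 12 of 17 ratios below 0, 3 at least 2-fold lower, 1 at least 2-fold higher and a median of -0.32. The laminin receptor chain ITGA6 gave 544 in M2, 356 in M1 and 3247 in M0 (log2 ratio -2.58), ITGB5 266 in M2 and 742 in M0 (log2 ratio -1.48) and ITGA9 449 in M2 and 1159.7 in M0 (log2 ratio -1.37), while ITGB3, part of the vitronectin receptor, gave 716 in M2 and 354 in M0 (log2 ratio 1.02) and was under 2-fold when the group totals were made equal. ITGAM, the α chain of complement receptor 3, gave 35883 in M2 and 46435 in M0 (log2 ratio -0.37).

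**Figure D4:**
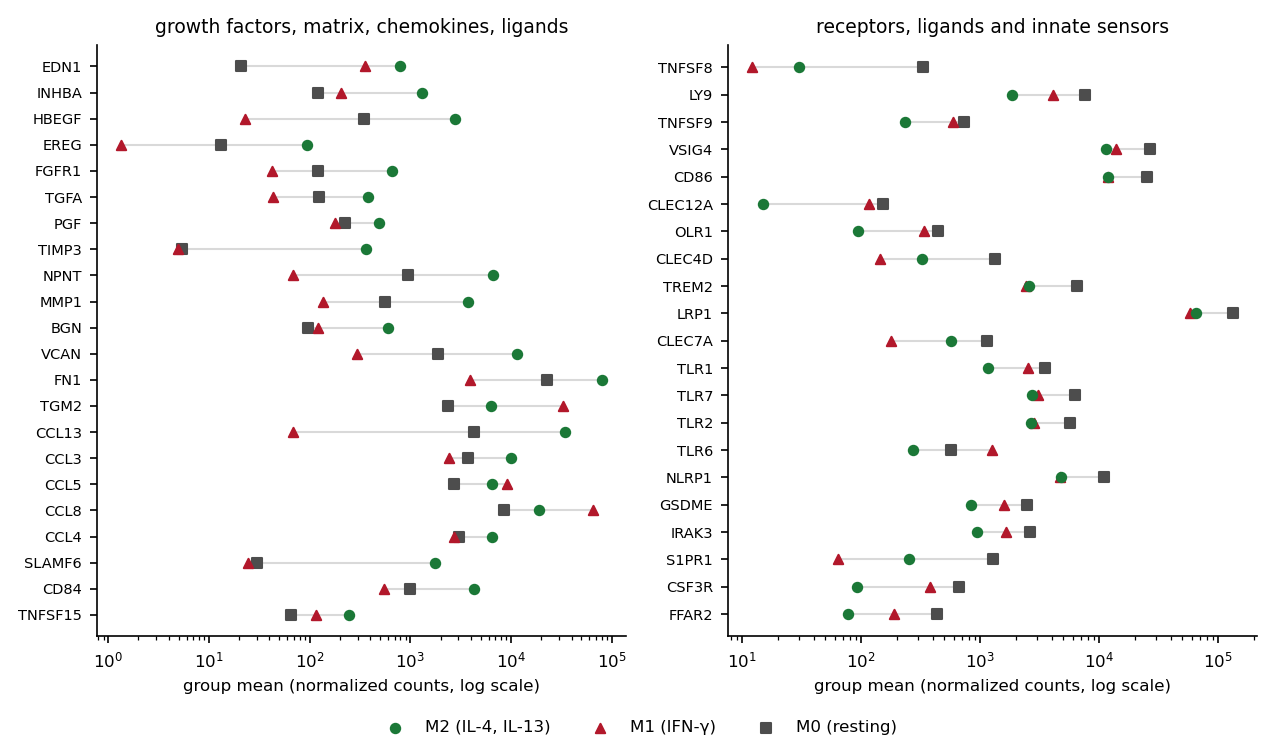
Points are group means in normalized counts on a log axis, with M2 as green circles, M1 as red triangles and M0 as gray squares, for genes named in the text. The left panel shows genes at least 2-fold higher in M2, from growth factors to chemokines and ligands, and the right panel genes at least 2-fold lower in M2, such as CLEC12A (14.9 in M2, 153 in M0) and TLR1 (1153 in M2, 3508 in M0).

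Scavenger receptors and lectins had the lowest median of the 38 gene lists, -0.44, although CD209 and MRC1 belong to it. Of 33 that passed the minimum, those 2 were at least 2-fold higher, 8 at least 2-fold lower, and 23 had ratios below 0. LRP1, a large endocytic receptor for many ligands, gave 64611 in M2, 57565 in M1 and 133057 in M0 (log2 ratio -1.04). OLR1, the receptor LOX-1 for oxidized LDL, gave 93.8 in M2 and 445 in M0 (log2 ratio -2.24), and the fungal sensing lectins CLEC4D, with 325 in M2, 145 in M1 and 1337 in M0 (log2 ratio -2.04), and CLEC7A, or dectin-1, with 571 in M2, 178 in M1 and 1151 in M0 (log2 ratio -1.01), were lower. The sialic acid binding lectin CD22 gave 108 in M2 and 234 in M0 (log2 ratio -1.11). The collectin COLEC12 gave 42.7 in M2 and 96.2 in M0 (log2 ratio -1.17). MSR1 gave 4598 in M2 and 8829 in M0 (log2 ratio -0.94), SIGLEC1 3863 in M2 and 7022 in M0 (log2 ratio -0.86), MARCO 7169 in M2 and 10391 in M0 (log2 ratio -0.54) and CD163, the hemoglobin scavenger receptor, 39147 in M2, 9559 in M1 and 47679 in M0 (log2 ratio -0.28).

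Genes for uptake of dying cells showed a similar lean, with 4 of 27 at least 2-fold lower, 1 at least 2-fold higher and a median of -0.22. S1PR1, a sphingosine phosphate receptor, gave 253 in M2, 63.9 in M1 and 1277 in M0 (log2 ratio -2.34). MEGF10, an engulfment receptor, gave 26.6 in M2 and 101 in M0 (log2 ratio -1.92). The TAM receptor MERTK gave 3381 in M2 and 3933 in M0 (log2 ratio -0.22). AXL gave 186 in M2, 1254 in M1 and 137 in M0 (log2 ratio 0.43). The complement list had a median of -0.28, with 2 of 16 at least 2-fold higher and 2 at least 2-fold lower. C3, the central component, gave 542 in M2, 3622 in M1 and 89.5 in M0 (log2 ratio 2.60) and SERPING1, the C1 inhibitor, 526 in M2, 5105 in M1 and 239.7 in M0 (log2 ratio 1.13), while CD55, which breaks down convertases, gave 59.5 in M2 and 243 in M0 (log2 ratio -2.03). The C1q chains C1QA, with 3913 in M2, 13152 in M1 and 5197 in M0 (log2 ratio -0.41), and C1QB, with 824 in M2, 12574 in M1 and 735 in M0 (log2 ratio 0.16), stayed within 2-fold.

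Innate sensors leaned lower in M2. Of 33 Toll-like receptor and inflammasome genes that passed the minimum, 8 were at least 2-fold lower, 0 were at least 2-fold higher, and the median was -0.25. TLR1 gave 1153 in M2, 2535 in M1 and 3508 in M0 (log2 ratio -1.61). TLR2 gave 2677 in M2, 2819.5 in M1 and 5666 in M0 (log2 ratio -1.08). TLR6 gave 273 in M2, 1248 in M1 and 565 in M0 (log2 ratio -1.05). These 3 receptors form the dimers that sense bacterial lipoproteins. TLR7, which senses single-stranded RNA, gave 2739.6 in M2, 3062 in M1 and 6231 in M0 (log2 ratio -1.19). CD180, a regulator of Toll-like receptor signals, gave 757 in M2, 345 in M1 and 1646 in M0 (log2 ratio -1.12). TLR4, the receptor for endotoxin, gave 4925 in M2 and 7336 in M0 (log2 ratio -0.57). IRAK3, which restrains these receptors, gave 940.1 in M2 and 2613 in M0 (log2 ratio -1.48), NLRP1 4733 in M2, 4646 in M1 and 11022 in M0 (log2 ratio -1.22) and the pore forming GSDME 831 in M2 and 2475 in M0 (log2 ratio -1.58), while NLRP3 gave 4599 in M2 and 4162 in M0 (log2 ratio 0.14). IL18 gave 9161 in M2 and 5997 in M0 (log2 ratio 0.61).

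The phagocyte oxidase and antimicrobial list leaned the same way, with 15 of 16 ratios below 0, 3 at least 2-fold lower, 0 at least 2-fold higher and a median of -0.23. CYBB, the catalytic subunit of the oxidase, gave 10332 in M2, 20055 in M1 and 22534 in M0 (log2 ratio -1.12), ACOD1, which makes itaconate, 407 in M2, 7459.6 in M1 and 940.3 in M0 (log2 ratio -1.21), and S100A12 was given above. The proton channel HVCN1 gave 2081 in M2 and 3927 in M0 (log2 ratio -0.92), lysozyme, LYZ, 35609 in M2, 16855 in M1 and 64970.4 in M0 (log2 ratio -0.87) and the metal transporter SLC11A1 23889.5 in M2, 68227 in M1 and 42186 in M0 (log2 ratio -0.82). The oxidase subunit CYBA gave 14796 in M2 and 15383 in M0 (log2 ratio -0.06). RAC2 gave 4485 in M2 and 4451 in M0 (log2 ratio 0.01). RAC2 was the only member above 0, and was below 0 when the group totals were made equal or the ratios centred.

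Eicosanoid and phospholipase genes differed in both directions. Of 20 that passed the minimum, 3 were at least 2-fold higher, 4 at least 2-fold lower and the median was -0.16. PLA2G5, given above, is among the higher ones, while PLA2G2F was outside the list. HPGD, which inactivates prostaglandins, gave 83.8 in M2, 16.1 in M1 and 14.9 in M0 (log2 ratio 2.49). LTB4R, the leukotriene B4 receptor, gave 417 in M2, 45.5 in M1 and 143 in M0 (log2 ratio 1.54). Besides PTGS2, the prostaglandin E2 receptor PTGER2 gave 251 in M2, 3368 in M1 and 1123 in M0 (log2 ratio -2.16), the lysosomal phospholipase PLA2G15 486 in M2 and 1342 in M0 (log2 ratio -1.46) and ALOX5AP, which hands arachidonic acid to 5-lipoxygenase, 2905 in M2, 1953 in M1 and 6845 in M0 (log2 ratio -1.24). The receptor PTGER4 gave 9265 in M2 and 6055 in M0 (log2 ratio 0.61).

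Lipid handling genes leaned lower, with 24 of 31 ratios below 0, 3 at least 2-fold higher, 3 at least 2-fold lower and a median of -0.18. ABCG1, which exports cholesterol, gave 2299 in M2, 322 in M1 and 843 in M0 (log2 ratio 1.45), whereas the exporter ABCA1 gave 23172 in M2, 16854 in M1 and 40417 in M0 (log2 ratio -0.80). The sterol receptor NR1H3, or LXRα, gave 585 in M2, 9277 in M1 and 1128 in M0 (log2 ratio -0.95). The lipase LIPG gave 79.2 in M2, 835 in M1 and 12.8 in M0 (log2 ratio 2.63). DHRS9, an enzyme of retinoid synthesis, gave 91.9 in M2 and 23.8 in M0 (log2 ratio 1.95). DGAT2, which makes triglycerides, gave 92.1 in M2 and 433 in M0 (log2 ratio -2.23). NR4A1, an early response nuclear receptor, gave 27.9 in M2 and 105 in M0 (log2 ratio -1.91). Cholesterol and fatty acid synthesis had a median of 0.01, which turned negative when the group totals were made equal or the ratios centred, with 0 of 34 genes at least 2-fold higher and FADS2, a fatty acid desaturase, at 533 in M2 and 1279 in M0 (log2 ratio -1.26), the only member at least 2-fold lower. In carnitine synthesis and fatty acid oxidation, 2 of 29 genes were at least 2-fold higher, with TMLHE the highest, 0 were at least 2-fold lower and the median was 0.10. The carnitine transferase CPT1A gave 3729 in M2, 7768 in M1 and 4354 in M0 (log2 ratio -0.22).

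Respiratory chain genes were higher in M2 without exception but by little. Of 52 listed genes for its subunits and for ATP synthase, 48 passed the minimum, and all 48 had ratios above 0, beside 53.1% of all genes, with a range of 0.07 to 0.58 and a median of 0.33. The ATP synthase gene ATP5MC1 gave 1930.3 in M2, 3149 in M1 and 1296 in M0 (log2 ratio 0.58) and the succinate dehydrogenase subunit SDHC 4179 in M2, 3797 in M1 and 2809 in M0 (log2 ratio 0.57), and the lowest were NDUFS5, with 1085 in M2 and 1031 in M0 (log2 ratio 0.07), and NDUFA2, with 853 in M2 and 804 in M0 (log2 ratio 0.09). The median ratio of these 48 genes in M1 over M0 was 0.62. These genes share the same samples, so their common sign is not 48 separate observations.

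Other housekeeping lists had similar small positive medians and no gene past 2-fold in either direction. The median was 0.26 for ribosome biogenesis and MYC target genes (32 of 35 above 0), 0.24 for proteasome subunits (32 of 35), 0.21 for mitochondrial ribosomal proteins (56 of 61) and 0.13 for cytosolic ribosomal proteins (48 of 53). The highest of these genes were MRPL17, with 836 in M2 and 488 in M0 (log2 ratio 0.78), and PSME2, a proteasome activator subunit, with 4285 in M2, 17494 in M1 and 2534 in M0 (log2 ratio 0.76). Lysosomal genes had the opposite sign, with 38 of 50 ratios below 0, 0 past 2-fold and a median of -0.19. Among them GPNMB gave 49252 in M2 and 82034 in M0 (log2 ratio -0.74), the cholesterol exporter NPC1 9253 in M2 and 14456 in M0 (log2 ratio -0.64) and cathepsin D, CTSD, 50626 in M2, 102754 in M1 and 79762 in M0 (log2 ratio -0.66), while IDS, an enzyme that degrades sulfated glycosaminoglycans, gave 8261 in M2 and 4511 in M0 (log2 ratio 0.87).

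In glycolysis 2 of 30 genes were at least 2-fold higher and 1, HK3, at least 2-fold lower, with a median of 0.16. The glucose transporter SLC2A3 gave 16755 in M2, 5669 in M1 and 5103 in M0 (log2 ratio 1.72) and hexokinase 2, HK2, 2325 in M2, 4385 in M1 and 832 in M0 (log2 ratio 1.48), so that HK2 was higher and HK3 lower in M2, and HK1 gave 5746 in M2 and 6099.5 in M0 (log2 ratio -0.09). The glucose transporter SLC2A1 gave 6979 in M2 and 6613 in M0 (log2 ratio 0.08). TPI1 gave 17227 in M2 and 9151 in M0 (log2 ratio 0.91). Of 20 arginine, polyamine and tryptophan genes, PYCR1, which makes proline, gave 433 in M2, 51.3 in M1 and 108 in M0 (log2 ratio 2.00). IDO1, which degrades tryptophan, gave 348 in M2, 104559 in M1 and 159 in M0 (log2 ratio 1.13). The arginase ARG2 gave 1117 in M2 and 1459 in M0 (log2 ratio -0.39). CYP1B1, a target of the aryl hydrocarbon receptor, was the only member at least 2-fold lower, with 9842 in M2, 59623 in M1 and 21543 in M0 (log2 ratio -1.13). The amino acid stress list had a median of 0.22, with WARS1, the tryptophan tRNA synthetase, at 9026 in M2, 88262 in M1 and 3881 in M0 (log2 ratio 1.22) and DDIT4, an inhibitor of mTOR, at 1061 in M2, 584 in M1 and 2560.3 in M0 (log2 ratio -1.27) as its only members past 2-fold.

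Part of the IFN-γ response list was higher in M2 as well. Of 36 genes that passed the minimum, 9 were at least 2-fold higher, 0 at least 2-fold lower and 29 above 0, with a median of 0.41, while the median ratio of the same genes in M1 over M0 was 2.37. The 9 were SOCS1, CIITA, GBP6, ICAM1, GBP1, WARS1, SERPING1, IDO1 and JAK2. Of these, SOCS1 and JAK2 are also members of the IL-4 and IL-13 lists. CIITA, ICAM1, WARS1, SERPING1 and IDO1 are counted in other lists above too. The guanylate binding proteins, which attack vacuoles that hold microbes, gave 17028 in M2, 157689.5 in M1 and 6382 in M0 (log2 ratio 1.42) for GBP1 and 12964 in M2, 64030.2 in M1 and 4223 in M0 (log2 ratio 1.62) for GBP6. IRF1, a transcription factor of the pathway, gave 6449 in M2, 44367 in M1 and 3804 in M0 (log2 ratio 0.76). BATF2 gave 527 in M2, 5782 in M1 and 438 in M0 (log2 ratio 0.27). Type I interferon stimulated genes had 0 of 35 members past 2-fold in either direction, 27 ratios below 0 and a median of -0.11. The highest was TRIM25, with 2682 in M2 and 1807 in M0 (log2 ratio 0.57), and the lowest SIGLEC1.

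Transcription factors of myeloid cells differed in both directions, with 8 of 49 at least 2-fold higher and 6 at least 2-fold lower. Their median of 0.01 turned negative when the group totals were made equal or the ratios centred. Beyond those named, EPAS1, or HIF-2α, gave 651 in M2, 117 in M1 and 146 in M0 (log2 ratio 2.16) while HIF1A gave 6646 in M2 and 5773 in M0 (log2 ratio 0.20). BHLHE40 gave 15156 in M2, 5005 in M1 and 5132 in M0 (log2 ratio 1.56). SPI1, or PU.1, a factor that defines macrophages, gave 26264 in M2 and 23732 in M0 (log2 ratio 0.15). The lower members were SOX4, with 59.8 in M2, 3.89 in M1 and 315 in M0 (log2 ratio -2.40), ID1, with 82.4 in M2 and 368 in M0 (log2 ratio -2.16), ID3, with 2178 in M2 and 5281 in M0 (log2 ratio -1.28), FOS, with 6035 in M2, 7486 in M1 and 20483 in M0 (log2 ratio -1.76), BCL6, a repressor, with 747 in M2, 3407 in M1 and 1891 in M0 (log2 ratio -1.34), and EGR1. ID1 and ID3 are inhibitors of helix-loop-helix factors.

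Of 46 cell cycle genes, 9 had ratios above 0, beside 53.1% of all genes, and the median was -0.28. The 4 at least 2-fold lower were 8.70% of the list, beside 3.49% of all genes, and the 1 at least 2-fold higher was 2.17%, near the 2.99% of all genes. The proliferation marker MKI67 gave 455 in M2, 328 in M1 and 749 in M0 (log2 ratio -0.72), the mitotic kinase CDK1 83.5 in M2, 99.4 in M1 and 193 in M0 (log2 ratio -1.21) and CCND1 103 in M2 and 211 in M0 (log2 ratio -1.03), while CCND2, another D-type cyclin, gave 304 in M2 and 139 in M0 (log2 ratio 1.13).

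Iron and oxidative stress genes had 4 of 35 at least 2-fold lower, 1 at least 2-fold higher and a median of -0.20. Besides SLC39A14, the metallothioneins MT1E, with 729 in M2, 1384 in M1 and 3579 in M0 (log2 ratio -2.30), and MT2A, with 1624 in M2, 2929 in M1 and 5973 in M0 (log2 ratio -1.88), which bind zinc and copper, were lower, as was SLC40A1, the iron exporter ferroportin, with 56.2 in M2 and 134 in M0 (log2 ratio -1.25). CP, the copper enzyme ceruloplasmin, gave 606 in M2, 139 in M1 and 235 in M0 (log2 ratio 1.36). The transferrin receptor TFRC gave 25434 in M2, 8361 in M1 and 45532 in M0 (log2 ratio -0.84). The ferritin chain FTH1 gave 665535 in M2, 506551 in M1 and 857506 in M0 (log2 ratio -0.37).

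Among 33 purinergic, histamine and other G protein-coupled receptors, 4 were at least 2-fold higher, 6 at least 2-fold lower and the median was -0.13. Besides F2RL3, the succinate receptor SUCNR1 gave 3913 in M2, 2907 in M1 and 1051 in M0 (log2 ratio 1.90), the ADP receptor P2RY1 119 in M2 and 35.5 in M0 (log2 ratio 1.74) and S1PR3 62.2 in M2 and 23.4 in M0 (log2 ratio 1.41). S1PR1 and S1PR3 bind the same lipid, and their means differed in opposite directions. The short chain fatty acid receptor FFAR2 gave 77.3 in M2, 188 in M1 and 436 in M0 (log2 ratio -2.49). Adhesion G protein-coupled receptors, a family chosen after its values were seen, had 5 of 12 ratios above 0. In that family 1 (8.33%, beside 2.99% of all genes) was at least 2-fold higher and 4 (33.3%, beside 3.49%) at least 2-fold lower. Among the lower ones, ADGRE1 gave 10813 in M2 and 22644 in M0 (log2 ratio -1.07), ADGRE2 21.0 in M2 and 57.4 in M0 (log2 ratio -1.45) and ADGRE3 481 in M2, 214 in M1 and 1379 in M0 (log2 ratio -1.52).

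**Figure D5:**
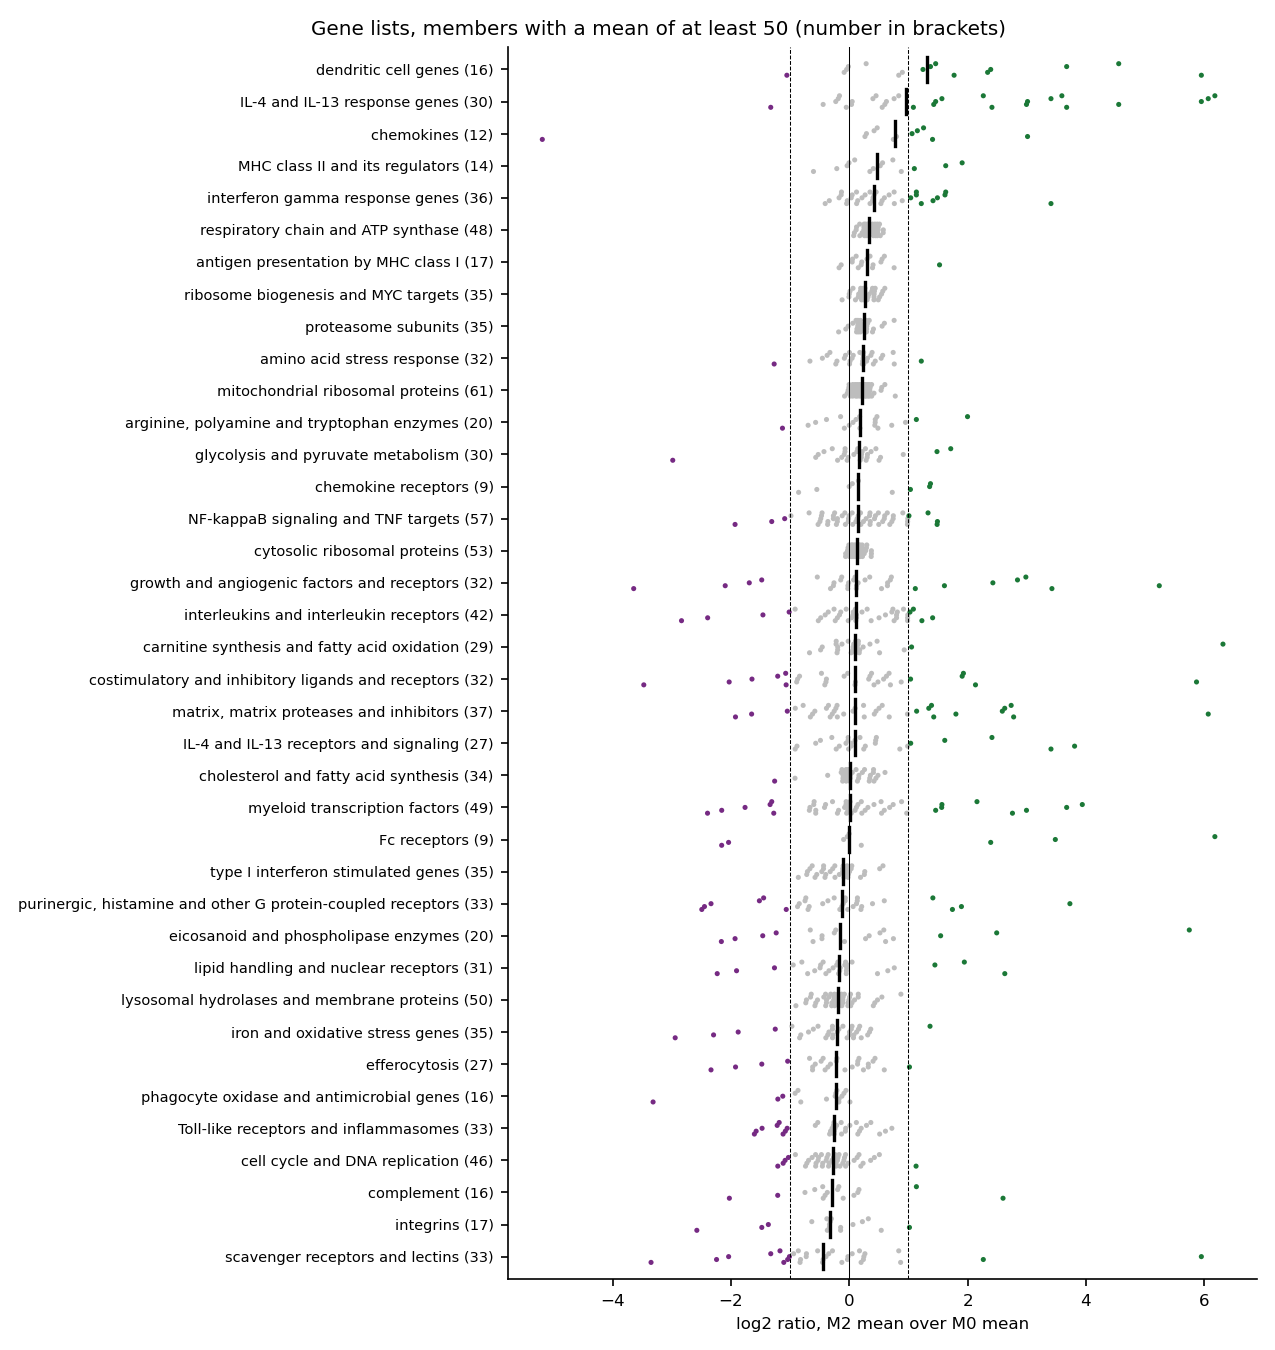
Each point is a gene and each line of points a gene list, with the log2 of the M2 mean over the M0 mean on the x axis and the number of members that passed the minimum in brackets. Black bars are list medians, dashed lines mark 2-fold, and green and purple points are genes at least 2-fold higher and lower in M2. Medians run from 1.31 for dendritic cell genes to -0.44 for scavenger receptors and lectins.

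In normalized counts, the largest gains among named genes past 2-fold came from class II, lipid presenting and matrix genes, and the largest losses from SPP1 and LRP1. HLA-DQB2, CD1C, FN1, CCL13 and MRC1 gained 59363, 57579.7, 57344, 30316 and 26847 counts over M0. The fatty acid transporter SLC27A6 gave 28730.2 in M2, 2313 in M1 and 3182 in M0 (log2 ratio 3.17). The sodium channel subunit SCN2B gave 21367 in M2, 215 in M1 and 2303 in M0 (log2 ratio 3.21). WIPF1, which binds the actin regulator WASP, gave 30168 in M2 and 12446 in M0 (log2 ratio 1.28). SYNGR2, a vesicle protein, gave 32416 in M2 and 16093 in M0 (log2 ratio 1.01). Losses below those of SPP1 and LRP1 included the semaphorin receptor PLXNC1, with 20655 in M2 and 48469 in M0 (log2 ratio -1.23), ENPP2, which makes lysophosphatidic acid and is also called autotaxin, with 11727 in M2 and 27025 in M0 (log2 ratio -1.20), the endocytic adaptor DAB2, with 7133 in M2 and 20509 in M0 (log2 ratio -1.52), and MS4A7, with 6175 in M2 and 18604 in M0 (log2 ratio -1.59).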

How the data were processed

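Poly-A selected mRNA from 9 cultures, 3 each of M2, M1 and M0 macrophages, was sequenced by the authors. The submitters' processing notes name Partek Flow 7.0, STAR 2.7.3a, HTSeq and the canine build CanFam3.1. The deposited signal values are least-squares means of normalized counts per group and gene, which the authors obtained with DESeq2, so replicates were already pooled. The table holds protein coding genes. No mean is at 0, the lowest being 1.07 in M2, 1.00 in M1 and 0.912 in M0, and whether an offset was added is not given in the sources used here. The depth of each sample is unknown, so no counting interval was computed.

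From these means the M2 over M0 ratio was taken for genes with a mean of at least 50 in M2 or M0, with no pseudocount, using Python 3.11.15, numpy 2.4.6 and pandas 2.3.3. Ratios were described against a 2-fold threshold, in 38 gene lists and 12 marker lists. No statistical test was run, since 1 mean per group and gene leaves no spread. The columns of the authors' own comparisons (ratios, fold changes, p-values and false discovery rates) and 3 tables of the authors' log2 ratios were not used.

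Genes were named by rule: the 20 highest and 20 lowest ratios, the 10 largest gains and 10 largest losses in counts past 2-fold, up to 2 from each end of each list, and members of the IL-4 and IL-13 lists. Other genes in the text were added after their values were seen. The comparison and the lists were chosen with earlier results of these data known. Some members of the lists, though counted in them, are not reported here by name. A search of promoters for STAT motifs was not run here. Other minimums, thresholds, pseudocounts and scalings were tried as alternatives.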

Additional observations from a re-analysis of the deposited data

How the results depend on the processing

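With no minimum mean, 461 genes were at least 2-fold higher and 575 at least 2-fold lower in M2. At a log2 threshold of 1.5 the counts were 168 higher and 152 lower, and at 2 they were 105 higher and 73 lower, so that the share of higher genes among those past the threshold was 46.1% at the 2-fold threshold, 52.5% at 1.5 and 59.0% at 2. The other minimums, the pseudocounts and both scalings kept each count within 1.5 times. With no minimum mean the median of the epithelial marker list turned from 1.09 to -0.36, as a low gene joined the 2 kept. The median of the neutrophil and precursor markers moved from -1.53 to -0.23. The T cell median moved to 0.52, and 3 further list medians near 0 changed sign. Making the group totals equal shifted the median of all genes by -0.03 and changed the sign of 2 of 47 list medians, those of cholesterol and fatty acid synthesis and of myeloid transcription factors, as did centring. Of 136 genes named by the rule and past 2-fold, 134 stayed past it under a pseudocount of 10, without ITGB3 and E2F8. The same number stayed past it under equal totals and under centring, without ITGB3 and SYNGR2. Genes added after their values were seen were not part of this count. Those just past 2-fold, such as IER3, may fall under it. Ratios of genes with low means moved most with the pseudocount of 10, by -2.08 to 1.15. No paired analysis was possible because only group means were analysed, and for the same reason no replicate could be left out.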

Other observations

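The gene families below were chosen after their values were seen, and their counts are a description. Solute carriers held 6 genes at least 2-fold higher and 13 at least 2-fold lower in M2 of 183, with a median log2 ratio of -0.03. The higher share, 3.28%, was close to the 2.99% of all genes, and the lower share was 7.10%, beside 3.49% of all genes. Besides those already given, SLC15A1, a peptide transporter, gave 1428 in M2, 242 in M1 and 419.7 in M0 (log2 ratio 1.77). SLC7A8, a transporter of neutral amino acids, gave 918 in M2, 37.5 in M1 and 2176 in M0 (log2 ratio -1.24). Plexins and semaphorins, receptors and ligands of cell guidance, held 1 of 18 at least 2-fold higher and 4 at least 2-fold lower, with a median of -0.31. The plexins went in both directions, as PLXNA2 gave 2483 in M2, 113 in M1 and 558 in M0 (log2 ratio 2.15). PLXNA4 gave 391 in M2, 179.8 in M1 and 2168 in M0 (log2 ratio -2.47).

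PTPRS, a receptor tyrosine phosphatase that binds proteoglycans, gave 1322 in M2, 204 in M1 and 269.7 in M0 (log2 ratio 2.29). It was the 1 of 16 protein tyrosine phosphatases at least 2-fold higher (6.25%, beside 2.99% of all genes). At least 2-fold lower were 2 of them (12.5%, beside 3.49% of all genes). The tetraspanin CD9 gave 8549 in M2, 1511 in M1 and 3129 in M0 (log2 ratio 1.45), and CD37 of the same family gave 1695 in M2, 3398 in M1 and 3647 in M0 (log2 ratio -1.11). Rab GTPases, which direct vesicle traffic, held 0 of 39 at least 2-fold higher and 1 (2.56%) at least 2-fold lower, near the 2.99% and 3.49% of all genes.

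Among the genes at least 2-fold different in M2, 23 higher and 33 lower ones carried an identifier and no name in the table. The largest gain in normalized counts of any gene was that of ENSCAFG00000032731, with 263582 in M2, 17628 in M1 and 26215 in M0 (log2 ratio 3.33). A large loss was that of ENSCAFG00000024944, with 20638 in M2, 21817 in M1 and 55614 in M0 (log2 ratio -1.43).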
